A study of Mus musculus with 32 samples.

Results

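Transcripts of 9 complement genes, C1qa, C1qb, C1qc, C3, C4b, C3ar1, C5ar1, Hc and Cfb, were followed in the spinal cord of G93A mice and their WT littermates. The 9 were chosen by name for their place in the complement cascade, with earlier results of these data known. They make up a small share of the 42524 genes in the count table. Because of this choice, counts of the 9 set beside the share of all genes are descriptive only. The study sequenced cord RNA of 32 mice, 4 in each of 8 groups. The groups were WT untreated, WT OKN007, G93A untreated and G93A OKN007, each at the labelled ages of 90 and 155 days. The study's own text gives a slightly later age for the younger mice, and the labelled age is used here. G93A mice carry many copies of a human SOD1 gene with the G93A mutation found in familial amyotrophic lateral sclerosis, on a C57BL/6J background, and the transgene is active in most tissues, so it marks no single cell type. The transgene itself was not analysed here. OKN007 (OKN-007 in the study) is a nitrone compound that was given in the drinking water, and the dose of the sequenced mice was not assigned here. The mice are referred to by the numbers of their labels, 1 to 16 at each age, and the mice of the 2 ages were different animals.

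Complement is a cascade of plasma and tissue proteins that tags particles for removal and calls in phagocytes. C1q, built from the chains of C1qa, C1qb and C1qc, recognises targets and starts the classical pathway, which cleaves C4 (C4b in the mouse table) and then C3. Cfb is the factor B of the alternative pathway, which amplifies C3 cleavage, and Hc encodes C5, the start of the terminal pathway. C3ar1 and C5ar1 are the receptors for the fragments C3a and C5a. The liver supplies most plasma complement, whereas in the central nervous system microglia make C1q and carry both receptors, and reactive astrocytes are a known source of C3 and C4.

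The 3 C1q genes lie side by side on the minus strand of chromosome 4 (GRCm38, GENCODE M21), C1qb (ENSMUSG00000036905) at chr4:136880129-136886187, C1qc (ENSMUSG00000036896) at chr4:136889804-136893065 and C1qa (ENSMUSG00000036887) at chr4:136895917-136898803. C3 (ENSMUSG00000024164) is at chr17:57203970-57228136, C4b (ENSMUSG00000073418) at chr17:34728380-34743882 and Cfb (ENSMUSG00000090231) at chr17:34856374-34862518. C3ar1 (ENSMUSG00000040552) is at chr6:122847138-122856161, C5ar1 (ENSMUSG00000049130) at chr7:16246743-16259540 and Hc (ENSMUSG00000026874) at chr2:34983331-35061438. All 9 genes are on the minus strand. Values below are read counts over all annotated exons of a gene, scaled to the TMM-corrected library size over the 32 mice (CPM).

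Promoter sequence, from 250 bases before to 50 bases after the start site (RefSeq, GRCm38.p6), was matched for 6 of the 9 genes. The promoters of C1qb, C1qc and C3ar1 are shown because, of these 6, they hold a match to a motif searched. They lie at chr4:136886151-136886450, chr4:136892865-136893164 and chr6:122856108-122856407, all on the minus strand, and are written 5′ to 3′. Capitals mark matches to the motifs searched, each on both strands. These were the ETS-type motif GAGGAA, the STAT motif TTCNNNGAA, the AP-1 motif TGACTCA and an ISRE-like motif of interferon-responsive genes. Shorter or other forms of these motifs were not searched.
C1qb: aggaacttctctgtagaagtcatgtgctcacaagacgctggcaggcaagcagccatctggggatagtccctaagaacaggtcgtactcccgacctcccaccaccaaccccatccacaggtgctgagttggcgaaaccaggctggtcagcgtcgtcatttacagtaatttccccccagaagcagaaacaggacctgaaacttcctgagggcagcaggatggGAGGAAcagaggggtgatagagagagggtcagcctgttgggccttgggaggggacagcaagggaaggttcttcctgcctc
C1qc: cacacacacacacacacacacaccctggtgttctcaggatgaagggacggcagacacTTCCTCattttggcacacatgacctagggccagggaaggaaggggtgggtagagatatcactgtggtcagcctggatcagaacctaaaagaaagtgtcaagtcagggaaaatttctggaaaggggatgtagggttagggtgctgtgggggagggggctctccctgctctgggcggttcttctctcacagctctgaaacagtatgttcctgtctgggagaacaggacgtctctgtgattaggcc
C3ar1: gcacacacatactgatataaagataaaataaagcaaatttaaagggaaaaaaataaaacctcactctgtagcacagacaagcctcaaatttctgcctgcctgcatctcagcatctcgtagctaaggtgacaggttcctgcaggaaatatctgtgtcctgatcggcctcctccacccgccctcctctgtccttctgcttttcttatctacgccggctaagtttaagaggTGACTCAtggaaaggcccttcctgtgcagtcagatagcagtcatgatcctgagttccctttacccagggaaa
GAGGAA, letters of an ETS site such as that of the macrophage factor PU.1, stood 30 bases before the C1qb start site and, on the opposite strand (written TTCCTC above), 193 bases before that of C1qc. This motif was present in 28.3% of 32851 promoters of the same length. TGACTCA, the letters of an AP-1 site, began 22 bases before the C3ar1 start site and was present in 5.2% of promoters. The STAT and ISRE-like motifs, found in 8.3% and 3.44% of promoters, had no match in these 3 windows, and none of the motifs matched in the windows of C3, C5ar1 and Hc. The RefSeq start sites of C1qc and C5ar1 lie well inside the GENCODE bounds of these genes. Distances and windows here therefore hold for the RefSeq start sites only.

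Libraries held 19701722 to 30138257 counts on genes (median 26658755), and 3 counts in the smallest library corresponded to 0.152 CPM. Of the 9 genes, 8 passed the filter on low counts at each age and Cfb did not. The labelled tissue carried its defining markers, with oligodendrocyte markers (Mbp, Mog, Mag) summing to 9507 CPM or more and motor neuron markers (Chat, Slc18a3, Slc5a7, Isl1, Mnx1, Prph) to 110.6 CPM or more in every library. The mean log2(CPM + 1) of caudal Hox genes, which depends on the level of the cord, was 0.57 and 0.56 in untreated G93A mice 9 and 10 at 155 days against 2.93 to 4.16 in the untreated WT mice. Liver transcripts stood out in a few libraries, with Alb (albumin) at 142 CPM in untreated G93A mouse 12 and 86.2 CPM in treated G93A mouse 15 at 155 days.

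At 155 days, 7 of the 8 complement genes tested were higher in untreated G93A than in untreated WT mice, in edgeR's quasi-likelihood test with Benjamini-Hochberg adjustment over 18675 genes. Of all genes tested, 21.3% were called higher. The 7 were C1qa, C1qb, C1qc, C3, C4b, C3ar1 and C5ar1, with no overlap between the groups in any of them, against 17.4% of all genes whose G93A mice were all above the WT mice. The median log2 fold change of the 8 genes was 3.36, beside 0.00015 for all genes. In RNA from whole tissue, more cells of a type and more RNA per cell cannot be told apart.

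**Figure D1:**
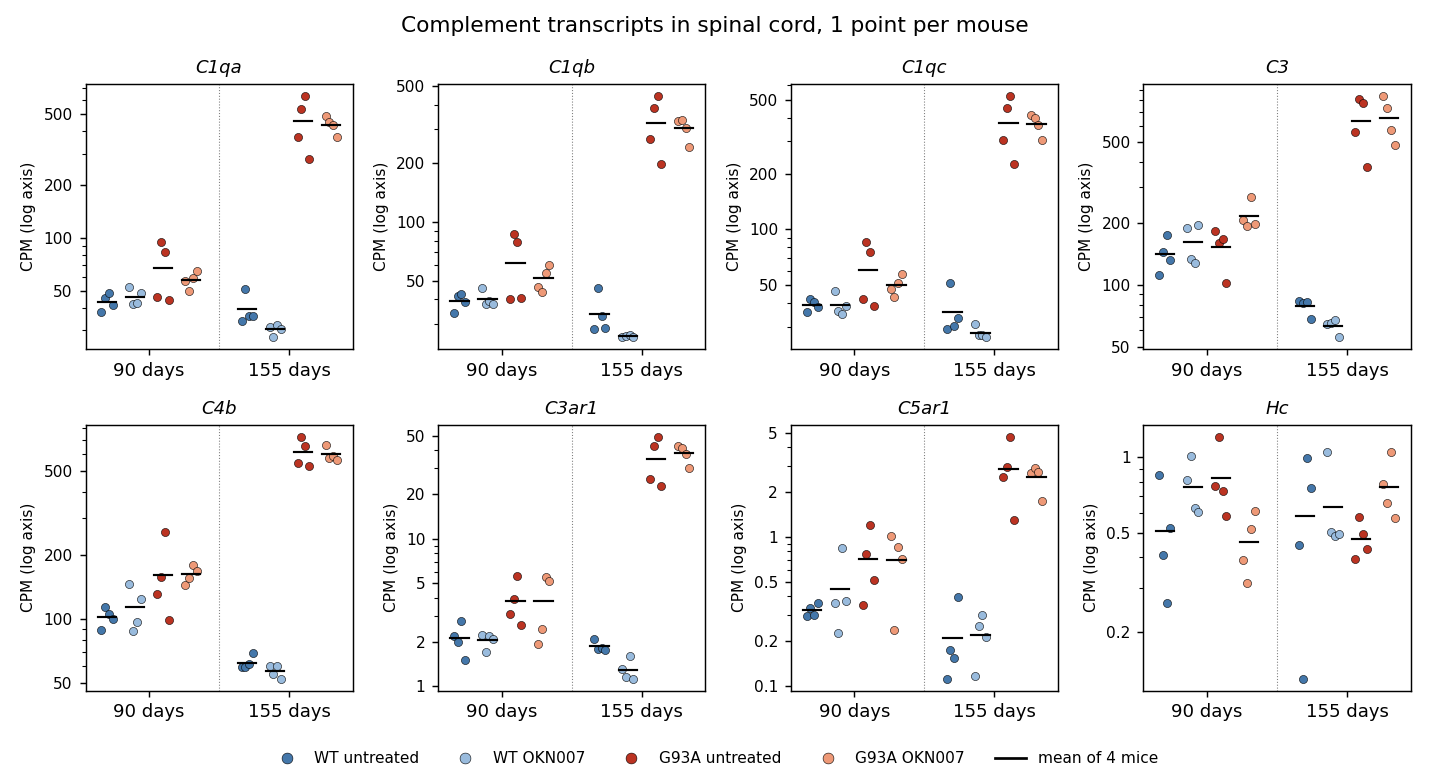
CPM of 8 complement genes (log axis, 1 panel per gene) by labelled age, with 1 point per mouse, colours for the 4 groups of genotype and treatment, and a line at the mean of 4 mice. In 7 panels both G93A groups at 155 days lie above every other mouse, while the groups of Hc overlap. Cfb, with 0 to 3 reads per mouse, is not drawn.

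C1qa, the A chain of C1q, was at 34.0, 51.4, 36.3 and 36.2 CPM in untreated WT mice 1 to 4 and at 374, 534, 637 and 279 CPM in untreated G93A mice 9 to 12. The lowest G93A mouse was thus well above the highest WT mouse, and the G93A mice differed among themselves by more than did the WT mice. The change was 3.55 on the log2 scale (SE 0.203, adjusted p = 1.74e-10), or 11.7-fold. C1qb ranged from 28.3 to 45.6 CPM in WT and from 198 to 445 CPM in G93A mice, with a log2 fold change of 3.27 (SE 0.209, adjusted p = 6.10e-10). C1qc ranged from 29.0 to 51.2 CPM in WT and from 226 to 525 CPM in G93A mice, with a log2 fold change of 3.40 (SE 0.226, adjusted p = 9.93e-10). In all 3 chains mouse 2 was the highest of the WT mice, and mice 11 and 12 were the highest and lowest of the G93A mice.

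C3, the protein on which all complement pathways meet, was at 83.2, 81.3, 83.1 and 68.4 CPM in the WT mice and at 558, 807, 777 and 375 CPM in the G93A mice. It rose 8.04-fold, the least of the 7 genes (log2 fold change 3.01, SE 0.205, adjusted p = 1.42e-09). C4b, the classical pathway component cleaved before C3, was at 59.4, 59.2, 61.0 and 69.2 CPM in the WT mice and at 545, 724, 657 and 530 CPM in the G93A mice. The G93A mice varied less in C4b than in the other genes (coefficient of variation 15.1% against 32.2% for C3 and 35.1% for C1qa), and its log2 fold change of 3.32 had the smallest error of the members (SE 0.103, adjusted p = 1.58e-13). C4a, a close copy of C4b, was at 1.52 ± 0.528 CPM in WT and 1.71 ± 0.331 CPM in G93A mice (SD, n = 4 each), and its log2 fold change of 0.17 did not pass the test (edgeR adjusted p = 0.647). How reads that match both copies were counted is not known and was not tested.

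The receptors were low in WT mice and had the highest fold changes. C3ar1, the C3a receptor, was at 2.09, 1.78, 1.84 and 1.77 CPM in the WT mice and at 25.3, 42.3, 48.9 and 22.8 CPM in the G93A mice. Its rise of 18.7-fold was the largest of the 9 genes (log2 fold change 4.23, SE 0.230, adjusted p = 9.96e-11). C5ar1, the C5a receptor, was at 0.112, 0.174, 0.153 and 0.394 CPM in the WT mice, or 3 to 12 reads, and at 2.5, 2.94, 4.68 and 1.29 CPM in the G93A mice, or 39 to 114 reads. It rose by 3.71 on the log2 scale (SE 0.412, adjusted p = 8.80e-07), with a 95% interval from 2.85 to 4.58. Mice 11 and 12 were again the highest and lowest of the G93A mice for both receptors.

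Hc and Cfb did not follow. Hc, which encodes C5, was at 0.447, 0.130, 0.994 and 0.755 CPM in the WT mice and at 0.391, 0.579, 0.492 and 0.430 CPM in the G93A mice. The values of the 2 groups overlapped and the log2 fold change of -0.31 did not pass the test (SE 0.425, adjusted p = 0.600), with a 95% interval from -1.20 to 0.58. Over the 32 mice Hc had between 3 and 31 reads. The interval does not reach the log2 fold change of 3.01 seen in C3. Cfb was at 0 reads in 21 of the 32 mice and reached at most 3 reads, 19 reads over all mice. Untreated WT mice at 155 days had 0 Cfb reads, and untreated G93A mice had 0, 0, 1 and 2. Of the 2825 exon bases of Cfb, 2246 are shared with Gm20547 on the same strand, a readthrough gene that was not analysed here, so reads of Cfb that a counter treats as ambiguous would be missing from these values.

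At 155 days the C1q genes, at the head of the cascade, had the highest mean levels per length in untreated mice. In CPM per kilobase of exon, the level in untreated WT mice at 155 days was 37.9 for C1qa, 31.1 for C1qb, 18.6 for C1qc, 15.4 for C3 and 10.9 for C4b. The level of the receptors was far lower, 0.434 for C3ar1 and 0.0810 for C5ar1 in CPM per kilobase, close to Hc at 0.0928. In untreated G93A mice of this age the order was C1qa (439), C1qb (298), C1qc (195), C3 (122), C4b (108), C3ar1 (8.09), C5ar1 (1.11) and Hc (0.0755) in CPM per kilobase. Neighbours in the order were separated in every mouse except that C1qc was above C3 in 2 of 4 WT mice, Hc above C5ar1 in 2 of 4 WT mice and C3 above C4b in 3 of 4 G93A mice. The order was not the same at 90 days. Mean C3 was then above C1qc in untreated WT (27.5 against 20.4), treated WT (31.6 against 20.4) and treated G93A mice (42.3 against 25.9). In untreated G93A mice of 90 days it was not (29.9 against 31.3).

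The 3 C1q chains did not keep the same proportions. C1qb took 26.5% to 28.3% of the reads of the 3 genes in the 8 G93A mice of 155 days, treated and untreated, and 29.1% to 33.6% in the other 24 mice, without overlap. C1qa took 38.1% to 40.5% in the former and 34.1% to 38.8% in the latter, a small overlap, while the C1qc shares overlapped throughout (32.1% to 33.7% and 30.0% to 35.1%). The ratio of C1qa to C1qb reads was 1.41 ± 0.018 in untreated G93A mice and 1.17 ± 0.075 in untreated WT mice at 155 days (SD, n = 4 each). These ratios were chosen after the fold changes were seen and are given without a test. C3ar1 rose beyond C1q, from 17.9 ± 4.46 to 30.1 ± 2.4 reads per 1000 C1q reads, whereas the ratio of C3 to C4b reads was 1.28 ± 0.196 in WT and 1.01 ± 0.210 in G93A mice, values that overlap.

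**Figure D2:**
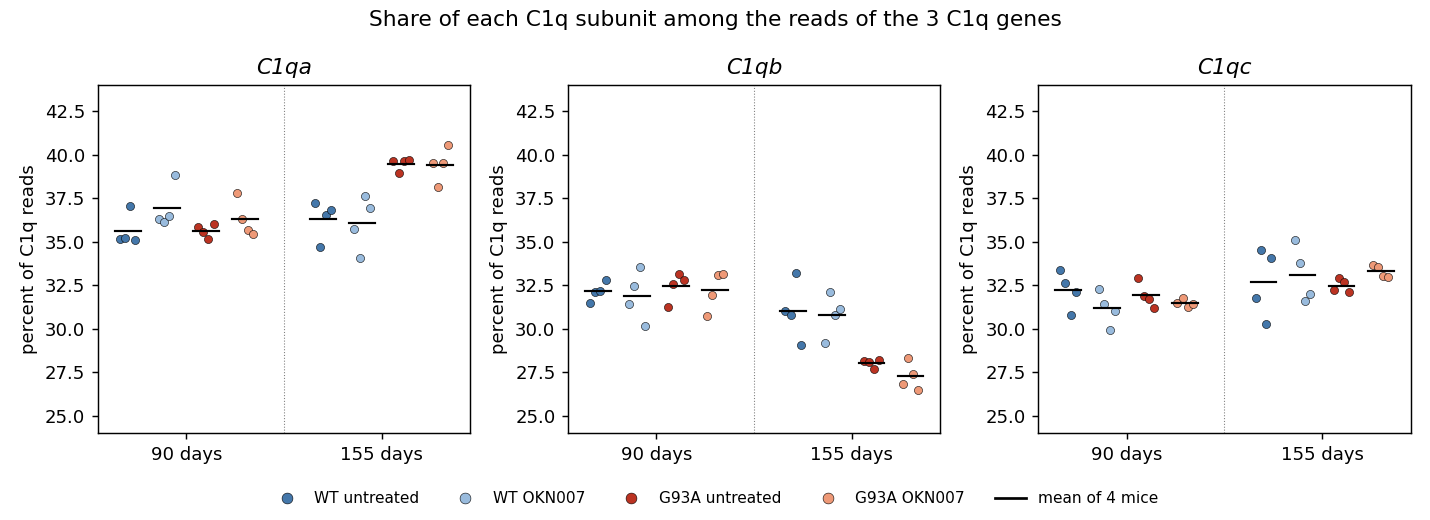
Percent of the summed reads of C1qa, C1qb and C1qc that came from each gene, by labelled age, with 1 point per mouse and a line at the mean of 4 mice. The C1qb share of the 8 G93A mice at 155 days lies at 26.5% to 28.3%, under all 24 other mice, whereas the C1qc shares overlap.

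Glial markers moved with these genes. All 7 microglia markers examined (Tmem119, P2ry12, Cx3cr1, Aif1, Csf1r, Trem2, Tyrobp) were higher in untreated G93A than WT mice at 155 days, their summed level going from 129.6 to 159 CPM in WT to 476 to 765 CPM in G93A mice. They were far from even, with log2 fold changes of 0.65 for Tmem119 and 0.39 for P2ry12, both homeostatic markers, and of 3.53 for Trem2 and 3.91 for Tyrobp, which form a lipid receptor and its adaptor. The summed CPM of the C1q genes per summed microglia marker CPM was 0.728 ± 0.152 in WT and 1.81 ± 0.263 in G93A mice, and C3 CPM per the same sum was 0.527 ± 0.0151 and 0.993 ± 0.142 (SD, n = 4 each). Of 7 astrocyte markers 6 were higher (Aldoc was not). The sum of the 7 went from 5919 to 6633 CPM in WT to 15040 to 18548 CPM in G93A mice. These markers were uneven too. Gfap, the astrocyte filament protein, had a mean of 2190.8 CPM in WT and 11460 CPM in G93A mice. The median log2 fold change of the 7 was 0.436, so the rise of the sum does not hold for each marker. C4b CPM per Gfap CPM was 0.0287 ± 0.00422 in WT and 0.0536 ± 0.00242 in G93A mice. Markers of blood monocytes and neutrophils (Ccr2, Ly6c2, Plac8, S100a8, S100a9) summed to at most 2.46 CPM in any library, none of the 2 that could be tested passed, and none was at 0 in all mice of either group. The part of cell numbers in the complement differences was not tested.

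**Figure D3:**
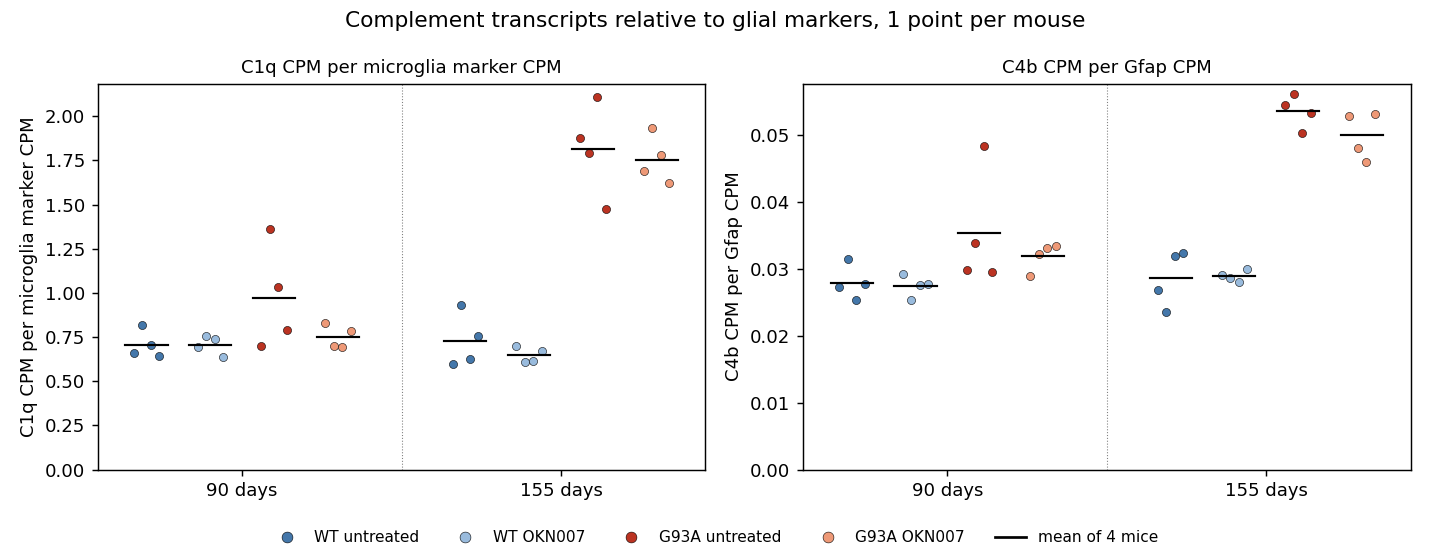
Left, summed CPM of the 3 C1q genes divided by the summed CPM of 7 microglia markers. Right, CPM of C4b divided by CPM of Gfap. Points are mice and lines are means of 4, and both axes start at 0. The untreated G93A mice of 155 days average 1.81 and 0.0536 on the 2 axes, against 0.728 and 0.0287 in the untreated WT mice.

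The comparison of untreated mice at 155 days was repeated with libraries left out for their liver transcripts and with a term for cord level. Without the libraries with Alb above 10 CPM, which removes G93A mouse 12 and WT mouse 1 from the compared groups, C3 rose by 3.23 and C1qa by 3.67 on the log2 scale. When the caudal Hox score entered the fit, the log2 fold change of C3 was 2.75 and that of C1qa 3.51, and the same 7 genes were called in both alternatives.

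At 90 days none of the complement genes was called between untreated G93A and untreated WT mice by edgeR's quasi-likelihood test or by DESeq2, nor was any other gene in the edgeR test (0.00% of 18899). At an unadjusted p under 0.05, 6 of the 8 genes tested were higher in G93A mice in either tool, against 3.17% of all genes in the edgeR test. These were C1qa, C1qb, C1qc, C4b, C3ar1 and C5ar1, with log2 fold changes from 0.62 (C1qc) to 1.12 (C5ar1) and edgeR adjusted p of 0.794 to 0.822. C1qa was at 37.9, 45.7, 49.0 and 41.7 CPM in WT mice 1 to 4 and at 46.2, 95.1, 83.6 and 44.4 CPM in G93A mice 9 to 12. G93A mice 10 and 11 were above every WT mouse for the 3 C1q genes, and mice 9 and 12 were within the WT range for C1qa. C4b was at 89.0, 114, 105 and 100.2 CPM in WT and at 132, 158, 258 and 98.5 CPM in G93A mice, so that mouse 12 again lay within the WT range (log2 fold change 0.67, edgeR adjusted p = 0.794). C3ar1, at 1.52 to 2.79 CPM in WT and 2.62 to 5.59 CPM in G93A mice, also overlapped.

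C3 and Hc had no unadjusted p under 0.05 between the untreated mice of 90 days, and whether their change differed from that of the other genes was not tested. C3 was at 112, 145, 176 and 133 CPM in the WT mice and at 184, 160, 168 and 102 CPM in the G93A mice, with a log2 fold change of 0.12 (95% interval -0.26 to 0.51), and the log2 fold change of Hc was 0.67 (-0.09 to 1.44). The microglia marker sum at this age was 159 to 187 CPM in WT and 156 to 230.1 CPM in G93A mice, and the highest sums, 196 and 230.1 CPM, were those of mice 10 and 11. When the treated and untreated mice of each genotype were pooled, 0 of the 8 genes passed the edgeR test against 0.0265% of all genes, and all but Hc had an unadjusted p under 0.05 and were higher, 7 genes with C3 (log2 fold change 0.27) among them, against 3.74% of all genes. The smallest adjusted p in this edgeR test was 0.258, for C4b (log2 fold change 0.59, SE 0.152) and C3ar1 (0.86, SE 0.221). This result depended on the processing. Of the complement genes followed, DESeq2 called C3ar1 alone in the pooled comparison, and a fit of all 32 mice called C4b. In the same comparison edgeR without a filter on low counts called C1qa, C1qb, C1qc, C4b and C3ar1. Without the filter, C1qa, C1qb and C4b were also called in the untreated mice. Each of these alternatives called other genes as well, and the totals are given below with the processing. The shares of all genes tested are not given for them, so these calls are descriptive only.

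The rise in G93A mice was larger at 155 than at 90 days for the same 7 genes, tested as the difference of the untreated genotype effects in a fit of all 32 mice (19829 genes, of which 12.9% were called higher). The difference on the log2 scale was 2.91 for C1qa, 2.61 for C1qb, 2.78 for C1qc, 2.88 for C3, 2.64 for C4b and 3.39 for C3ar1, with edgeR adjusted p of at most 1.91e-07. For C5ar1 it was 2.59 (SE 0.666, adjusted p = 0.00529), and for Hc it was -0.99 and did not pass (SE 0.569, adjusted p = 0.226).

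Within untreated G93A mice the 7 genes were higher at 155 than at 90 days without overlap, with log2 fold changes from 1.93 (C4b) to 3.20 (C3ar1), where 21.0% of all genes were called higher and 17.2% did not overlap. Hc was lower without overlap (10.5% of all genes), at 0.391 to 0.579 CPM against 0.585 to 1.21 CPM, but did not pass the test (log2 fold change -0.78, edgeR adjusted p = 0.134). In untreated WT mice C3 and C4b were lower at 155 days, where 9.61% of all genes were called lower. WT C3 was at 112 to 176 CPM at 90 days and 68.4 to 83.2 CPM at 155 days (log2 fold change -0.84, SE 0.201, adjusted p = 0.00314), and WT C4b was at 89.0 to 114 CPM and 59.2 to 69.2 CPM (-0.71, SE 0.176, adjusted p = 0.00383). The C1q chains, the receptors and Hc did not pass in WT mice, with log2 fold changes between -0.58 and 0.21. Oligodendrocyte markers also summed to less at the later age, 15659 to 19373 CPM at 90 days and 9904 to 12336 CPM at 155 days in untreated WT mice, and age cannot be told apart from any difference in how the libraries of the 2 ages were made.

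OKN007 was compared with no treatment in G93A mice to ask whether it altered the response. At 155 days none of the 8 genes was called, and none had an unadjusted p under 0.05 in edgeR's quasi-likelihood test (0.00% of all genes were called and 4.04% had such a p) or in DESeq2. C1qa was at 374, 534, 637 and 279 CPM in the untreated and at 488, 452, 436 and 374 CPM in treated mice 13 to 16, a log2 difference of -0.05 with a 95% interval from -0.43 to 0.33. C4b was at 667, 578, 588 and 567 CPM in the treated mice, within the range of the untreated ones, and the interval of its log2 difference was the narrowest, -0.22 to 0.17. C3 was at 839, 733, 573 and 482 CPM in the treated mice, and the interval of its log2 difference ran from -0.32 to 0.47. C3ar1 was at 42.3, 41.2, 37.6 and 30.1 CPM in the treated mice (95% interval of the log2 difference -0.25 to 0.51), and for C5ar1 the interval ran from -0.81 to 0.50. Hc was at 0.780, 0.654, 1.05 and 0.570 CPM in the treated mice, overlapping the untreated ones (log2 difference 0.71, 95% interval -0.16 to 1.57), and its highest value was in mouse 15, the treated library highest in liver transcripts. Untreated mouse 12, the library with the most liver transcripts of all, had 0.430 CPM of Hc, the second lowest of its group, and the part of liver transcripts in Hc was not tested. The treated mice spread less than the untreated ones in each of the C1q chains, C3, C4b, C3ar1 and C5ar1. The coefficient of variation was 10.9% against 35.1% for C1qa, 24.4% against 32.2% for C3 and 7.55% against 15.1% for C4b. Hc went the other way, at 27.3% against 17.4%, and these differences in spread were not tested.

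**Figure D4:**
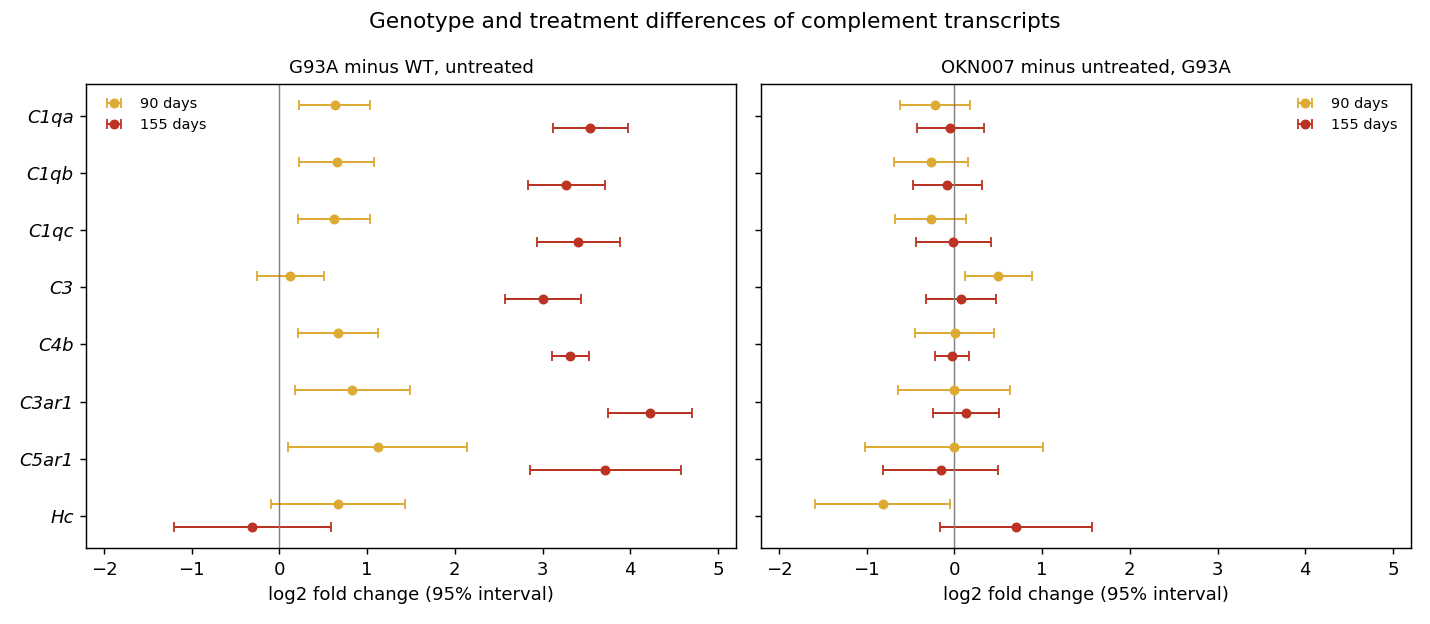
Log2 fold changes of 8 complement genes with 95% intervals from edgeR's quasi-likelihood fits, for untreated G93A minus untreated WT mice (left) and OKN007 minus untreated G93A mice (right), at 90 days (yellow) and 155 days (red). At 155 days 7 genes lie between 3.01 and 4.23 on the left, whereas all intervals of that age on the right include 0.

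At 90 days the C1q genes, C4b and the receptors of G93A mice had log2 differences with OKN007 between -0.27 and 0.005, none of which passed. The 95% intervals ran from -0.67 to 0.14 for C1qc and from -0.44 to 0.45 for C4b. They were wider for the receptors, -0.64 to 0.63 for C3ar1 and -1.01 to 1.01 for C5ar1. C3 was higher in the treated mice without overlap, at 207, 195, 270 and 199 CPM in mice 13 to 16 against 184, 160, 168 and 102 CPM in the untreated mice, where 1.43% of all genes were higher without overlap. Its log2 difference of 0.50 (95% interval 0.12 to 0.89) did not pass the adjustment (edgeR adjusted p = 0.837). The caudal Hox score was 0.76, 0.65, 3.25 and 2.98 in treated mice 13 to 16, against 2.11 to 3.21 in the untreated mice. None of the complement genes was called in this comparison without this score in the fit, and none was with it. The part of cord level in the C3 difference was not tested. Hc was lower, at 0.387, 0.315, 0.517 and 0.608 CPM against 0.769, 1.21, 0.731 and 0.585 CPM, with a log2 difference of -0.82 that did not pass either (edgeR adjusted p = 0.837). These were the only 2 of the 8 genes with an unadjusted p under 0.05, where 5.56% of all genes had one, and DESeq2 also found 2 and called none. The OKN007 difference of Hc in G93A mice was 1.51 higher on the log2 scale at 155 than at 90 days (edgeR adjusted p = 0.99997), and no other of the 8 genes had an unadjusted p under 0.05 for this difference between ages, where 2.35% of all genes had one. DESeq2 likewise called 0 and found 1 at an unadjusted p under 0.05.

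In WT mice OKN007 also gave no call by either tool at either age. At 155 days C1qa, C1qb, C3 and C3ar1 were lower in the treated mice without overlap, where 0.873% of all genes were. C1qa was at 31.4, 27.4, 32.2 and 30.3 CPM in treated mice 5 to 8 against 34.0 to 51.4 CPM, and C3 was at 64.8, 65.5, 67.5 and 55.6 CPM against 68.4 to 83.2 CPM. C3ar1 was at 1.32, 1.15, 1.61 and 1.13 CPM in the treated mice against 1.77 to 2.09 CPM. The log2 differences of the 4 genes were -0.39, -0.40, -0.33 and -0.53, with edgeR adjusted p of 1, and none had an unadjusted p under 0.05 in edgeR (2.94% of all genes did), while DESeq2 gave 2 such genes. The microglia marker sum was 122 to 139 CPM in these treated mice and 129.6 to 159 CPM in the untreated ones, and its part in the differences was not tested. At 90 days the values of the groups overlapped in every gene and 0 had an unadjusted p under 0.05 in either tool, where 4.07% of all genes did in edgeR. The genotype by treatment interaction was not called for any of the 8 genes at either age by edgeR or DESeq2. It had an unadjusted edgeR p under 0.05 for 0 genes at 155 days (1 by DESeq2) and for Hc alone at 90 days (1 by DESeq2), where 2.34% and 2.81% of all genes did.

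Among OKN007-treated mice the genotype difference at 155 days was again called for C1qa, C1qb, C1qc, C3, C4b, C3ar1 and C5ar1, without overlap, against 23.3% of all genes called higher and 22.6% higher without overlap. The log2 fold changes were 3.89, 3.59, 3.77, 3.41, 3.44, 4.90 and 3.52, and Hc, at 0.32, did not pass (edgeR adjusted p = 0.555). The caudal Hox score also separated these groups, at 3.86 to 4.16 in treated WT and 1.26 to 2.97 in treated G93A mice. With this score in the fit the same 7 genes were called, and the part of cord level in the differences was not tested. At 90 days 0 genes were called by edgeR or DESeq2 in the treated mice. C3, C4b and C3ar1 had an unadjusted edgeR p under 0.05 (2.19% of all genes were higher with such a p), with log2 fold changes of 0.43, 0.52 and 0.88, and DESeq2 gave 2 such genes.

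By mean CPM over the 8 groups, each of the 7 genes was highest in the 2 G93A groups of 155 days, whose values overlapped, and no other mouse reached them. For C1qa these means were 456 ± 160 CPM untreated and 438 ± 47.7 CPM treated, followed by 67.3 ± 25.9 and 57.6 ± 6.11 CPM in untreated and treated G93A mice of 90 days (SD, n = 4 each). Next came treated and untreated WT mice of 90 days at 46.5 ± 5.04 and 43.6 ± 4.83 CPM and untreated WT mice of 155 days at 39.5 ± 8.05 CPM, each overlapping its neighbour. Treated WT mice of 155 days were last at 30.3 ± 2.13 CPM and below all untreated WT mice of that age. For C3 the third group was treated G93A mice of 90 days at 218 ± 35.2 CPM, and for C4b the treated and untreated G93A mice of 90 days were level at 162 ± 15 and 162 ± 68.5 CPM.

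The wider complement system gave a mixed picture. Of 50 other complement genes listed by role, all were in the table, 31 passed the filter at 155 days, 13 were higher and 3 lower in untreated G93A than WT mice, and 15 did not pass the edgeR test. Of all genes 21.3% were higher and 18.2% lower. Their median log2 fold change was 0.17, beside 0.00015 for all genes. The proteases that C1q activates rose with it, C1ra by 3.07 on the log2 scale (1.01 ± 0.196 to 8.36 ± 2.44 CPM) and C1s1 by 2.25 (1.83 ± 0.447 to 8.67 ± 0.634 CPM). Both have near copies in the genome, C1rb and C1s2, and reads may be divided between them. Colec12, a scavenger receptor with a collectin domain, rose by 1.55, and Colec10, a collectin of the lectin pathway, passed the test but had 0.0189 CPM in WT and 0.658 CPM in G93A mice, too few reads in WT for a fold. C4a and Colec11 did not pass. In this initiating group 6 of 10 tested genes were higher and 0 lower.

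Complement inhibitors are either secreted or held on the cell membrane. In the comparison of untreated mice at 155 days, 21.3% of all genes were higher and 18.2% lower. Of 4 soluble regulators tested, 2 were higher, Serping1, the C1 inhibitor, by 3.22 on the log2 scale (4.48 ± 0.480 to 41.4 ± 19.2 CPM) and Clu, clusterin, by 1.73. Vtn (0.04) and Cfi (0.28) did not pass. Of 9 membrane regulators 0 were higher and 3 were lower. These were Cd55, decay-accelerating factor, at -0.81 (15.7 ± 2.41 to 8.92 ± 1.57 CPM), Csmd3 at -0.50 and Susd4 at -0.43, while Cd59a (-0.10) and Csmd2 (-0.06) did not pass. Among treated mice of this age 4 membrane regulators were lower, where 18.2% of all genes were. These were Cd55 (-0.90), Susd4 (-0.49), Csmd1 (-0.35) and Csmd3 (-0.27). Cr1l alone was higher, by 0.22 (edgeR adjusted p = 0.0081), where 23.3% of all genes were. In untreated mice Cr1l (0.15) and Csmd1 (-0.28) did not pass (edgeR adjusted p = 0.063 for each). Cr1l and Csmd1 are named here because of these values, and whether the 2 kinds of regulator differed was not tested. Cd55 and Csmd3 are expressed in neurons among other cells, and the motor neuron markers were lower too, 5 of 6 passing, their sum at 239 to 282 CPM in WT and 151 to 176 CPM in G93A mice. The part of cell numbers in the lower values was not tested.

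Of 6 other receptors tested 4 were higher in untreated G93A mice at 155 days, where 21.3% of all genes were. Itgax (CD11c), the alpha chain of complement receptor 4, rose by 7.25 on the log2 scale, from 0.407 ± 0.173 to 61.8 ± 15.7 CPM. Itgb2, the shared beta chain, rose by 3.64 and Itgam (CD11b), the alpha chain of complement receptor 3, by 2.27, although Itgam shares exon sequence with Gm49368 on the same strand. C5ar2, the other C5a receptor, rose by 1.72, and Cd93 (-0.15) and Cr2 (-0.19) did not pass. The one terminal component tested, C8g, rose by 0.95 (0.372 to 0.723 CPM) in untreated mice but did not pass among treated mice of the same age (0.23, edgeR adjusted p = 0.564). The one alternative pathway gene tested, Cfp or properdin, did not pass (-0.18). None of the 31 genes tested at each age was called with OKN007 in G93A mice. At 90 days 0 of 31 were called between the untreated genotypes and 5 had an unadjusted edgeR p under 0.05, 4 of them higher, where 5.96% of all genes had one. Among treated mice of 155 days 12 were higher and 5 lower, against 23.3% and 18.2% of all genes.

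**Figure D5:**
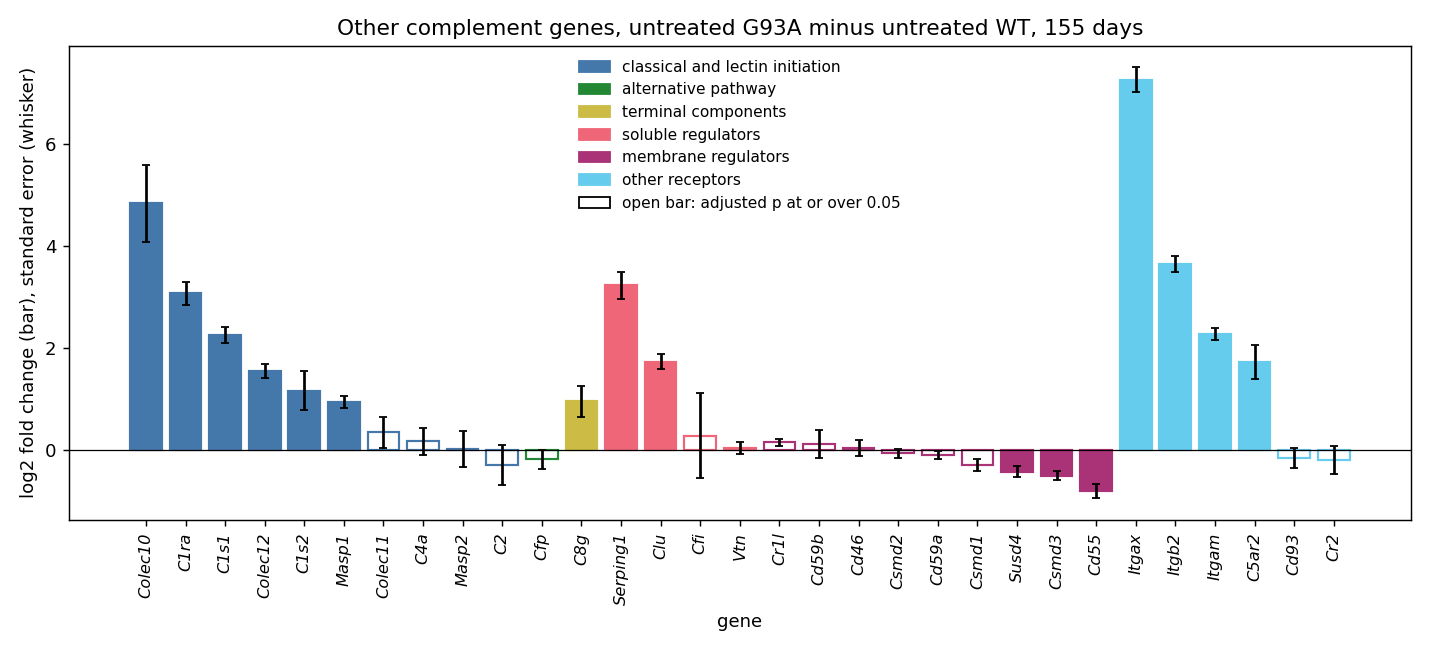
Log2 fold changes (bars) with standard errors (whiskers) of the 31 other complement genes tested, untreated G93A minus untreated WT mice at 155 days, coloured by role, with open bars for genes at or over an adjusted p of 0.05. The receptor gene Itgax is highest at 7.25 and the 3 filled bars below 0 are all membrane regulators. The bar of Colec10 rests on too few reads in WT mice to be read as a fold.

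The genes whose pattern over the 32 mice was most like that of C1qa, by the root mean square difference of centred log2(CPM + 1) among 19828 genes, were C1qc (0.085), Trem2 (0.15), Tyrobp (0.15), C1qb (0.16) and Cd84 (0.19), where the standard deviation of C1qa was 1.48 on the same scale. For C4b the 5 nearest were Fcgr3 (0.27), Flnc (0.27), A2m (0.28), Ly86 (0.28) and S100a6 (0.29). For C3 they were Flnc (0.23), Cd44 (0.25), A2m (0.29), C4b (0.30) and Cd9 (0.30). The points of these comparisons share the same libraries, and most of the variation in each gene is the difference between G93A mice of 155 days and the rest.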

How the data were processed

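RNA of spinal cord from 32 mice was measured by RNA-seq. The authors deposited 1 table of raw read counts per gene, not normalized. The study's text names Trimmomatic, STAR, HTSeq and GENCODE M10, whereas the submitters' processing notes name FastQC, STAR, featureCounts, edgeR, GRCm39, mm39 and hg38. Since 1306 gene IDs of the table are numbered above the highest ID of GENCODE M21, release 10 cannot have been the annotation used, and the counter is unsettled. A strand-specific library kit is named, but a strand setting for counting is not given in the sources used here. Symbols were paired for 41203 of 42524 IDs, and coordinates and exon lengths are from GENCODE M21 (GRCm38), not from the authors' files. The table had 0 value columns that were not used.

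Counts were analysed with edgeR 4.0.16 in R 4.3.3 (filterByExpr, TMM, glmQLFit, glmQLFTest). The 16 mice of an age were fitted as 4 groups, and differences between ages in a fit of all 32. Tests are two-sided, adjusted p (Benjamini-Hochberg) over all genes tested, with a threshold of 0.05, and standard errors were taken from the F statistic. Each library is a separate mouse by its label, and nothing ties mice to litters or batches. Values ± are SD. Intervals are 95%, and floors (3 counts) cover counting error only. The scripts were first checked on simulated counts of known fold changes.

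The members, marker lists and complement list were chosen with earlier results of these data known, and a few genes of the lists are not reported here. The text names all 9 members, and of the other complement genes, in each role, up to 4 past the threshold with the largest change and up to 2 not past it with the highest mean CPM. For patterns it names the 5 nearest genes to C1qa, C4b and C3, on log2(CPM + 1). The alternatives were DESeq2 1.42.0, RLE factors, no filter on low counts, all 32 mice in one fit, the compared groups alone, a caudal Hox score as a covariate (Hoxa10, Hoxa11, Hoxc10, Hoxc11, Hoxd10, Hoxd11), libraries with Alb above 10 CPM left out, a replicate block, and leaving out each mouse.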

Additional observations from a re-analysis of the deposited data

Results flagged for a closer look

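The genotype effect of untreated mice differed between the ages, by a test of the difference itself, in 7 complement genes. It was larger at 155 than at 90 days by 2.909 for C1qa, 2.612 for C1qb, 2.775 for C1qc, 2.875 for C3, 2.642 for C4b, 3.394 for C3ar1 and 2.592 for C5ar1 on the log2 scale.

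In 4 of 64 groups of 4 mice checked for these genes, 1 mouse lay far from the others by Dixon's criterion, where chance gives 3.20. C1qa was 51.41 CPM in untreated WT mouse 2 at 155 days, with the next mouse at 36.28 CPM. C3 was 269.7 CPM in OKN007-treated G93A mouse 15 at 90 days, with the next at 206.6 CPM, and 68.39 CPM in untreated WT mouse 4 at 155 days, below the next at 81.29 CPM. Hc was 1.048 CPM in OKN007-treated WT mouse 5 at 155 days, with the next at 0.504 CPM.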

How the results depend on the processing

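The 490 values recomputed for called complement genes all kept their direction and passed the threshold under every alternative run, leaving out each mouse included. Of 258 counts of called members, 253 were within 1.5 times the main count. The others concern 90 days. Between untreated genotypes, no filter on low counts gave 3 called members in place of 0 (39 genes in all). With treatments pooled, where the main count was 0, DESeq2 gave 1, no filter 5 and all 32 mice in one fit 1, with 66, 110 and 21 genes in all, and leaving out a mouse gave 0 to 2, the 2 (C1qc and C4b, with 54 genes in all) without untreated G93A mouse 12. The cause was not tested. Sample numbers recur at the 2 ages, but deviations of same-numbered mice correlated at -0.22 to 0.26, over 0.1 in 3 of 16 pairs, and 3 of the 16 mice of 90 days were most like their own number, so the numbers were not taken as pairs. With the number as a replicate block the difference of the G93A change between ages called 7 members, the ages within G93A mice 7, within WT mice 2 and the OKN007 effect between ages 0, as without it. The compared groups alone were not run as a separate fit for comparisons that use all 4 groups of an age, which are the same fit. Depth limits Cfb, Hc and C5ar1 in WT mice.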

Other observations

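Markers of other cell types were compared between untreated WT and G93A mice at 155 days. Of 3 border macrophage markers tested only Pf4 was higher, by 1.39 on the log2 scale, and the list summed to 2.5 to 3.31 CPM in WT and 2.86 to 5.38 CPM in G93A mice. Of 5 meningeal fibroblast markers the collagen genes Col1a1 and Col1a2 were higher, by 0.67 and 0.38 on the log2 scale. The 5 liver markers tested had log2 fold changes from 1.64 (Apoa2) to 3.23 (Ahsg) that did not pass the edgeR test (adjusted p of 0.0934 to 0.220). The liver list summed to 1.22 to 19.6 CPM in WT and 1.52 to 190.4 CPM in G93A mice, with a median of 4.99 CPM in the latter and the highest sum in mouse 12. Log2 fold changes ran from -0.55 to -0.19 for 3 endothelial markers and from -0.69 to -0.40 for 4 red blood cell markers, with edgeR adjusted p of 0.0827 or more in both lists. Of 3 oligodendrocyte markers Mag alone was higher, by 0.25.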
